A study of Schizosaccharomyces pombe with 6 samples.

Results

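In fission yeast, 347 of 4105 protein-coding transcription units carried a 5′ leader of at least 500 bases, and these units are described here through 4.5 h of depletion of the transcription elongation factor Spt5. A leader is the stretch of a unit from its start to the start codon, and its length was taken from the authors' deposited table of 5484 transcription units. Another 3502 coding units had a shorter leader and 256 had no leader length. The choice used the length alone and no count.

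Spt5 travels with RNA polymerase II and helps it to elongate through the early part of a gene. A long leader places many transcribed bases between the start of transcription and the first codon, so the polymerase covers more template before it reaches the coding sequence. Ribosomes scan a leader from its cap, and a start triplet upstream of the main start codon can engage them in a short upstream reading frame (uORF). In S. pombe, genes regulated by phosphate are known for noncoding transcription across their promoters.

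The 6 libraries came from strain ASP167, mating type h-, at 0, 2.5 and 4.5 h, with 2 biological replicates per time point. In this strain spt5 is transcribed from the thiamine-repressible Pnmt81 promoter and its protein carries V5 and the IAA17 degron, while OsTIR1 and AtTIR1, each fused to skp1 behind Padh15, sit at ade6, and ura4 has the D18 deletion. The 0 h cells carried all of these as well. Cultures in EMM began from single colonies, thiamine and the auxin NAA were given at 0 h, and newly made RNA was labelled with 5 mM 4-thiouracil for 10 min before purification. No library analysed here came from an untreated culture at 2.5 or 4.5 h, and the effects of Spt5 loss, of the added thiamine and NAA and of culture age cannot be told apart.

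Levels are given as CPM, the counts of a unit scaled to the size of its library with TMM factors. Totals per library ran from 11525663 to 35673601 counts, and the median long-leader unit had 2979 to 10158 counts. The transcript of spt5 itself, whose leader is 120 bases, stood at 1045 and 720.8 CPM at 0 h, at 120.6 and 108 at 2.5 h, and at 98.22 and 92.26 at 4.5 h. Its log2 fold change was -2.95 at 2.5 h (adjusted p = 0.00468) and -3.21 at 4.5 h (adjusted p = 0.00383). The 0 h libraries differed more between replicates than the later ones: 12.2% of the other coding units and 5.49% of the long-leader units lay at least 2-fold apart at 0 h.

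The leaders ran from 500 to 3095 bases, with a median of 744 and quartiles of 577 and 1003. The units were longer as a whole, at a median of 2681 against 1703 bases for the other coding units, and so were their coding lengths, at 1539 against 1137 bases. No intron was present in 73.2% of them against 47.8% of the others, yet 37 (10.7%) had an intron inside the leader itself, against 2.11%. Per kilobase of unit, the long-leader units had a median level of 78.4 and 83.4 CPM in the 2 libraries at 0 h, where the other coding units had 41.6 and 38.2. The half-life score in the authors' deposited table, for which no time unit is given, had a median of 7.58 in the long-leader units and 13.32 in the others.

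Upstream ATG triplets were common in the leaders but rarer than other triplets of the same letters. The median leader held 3, 85 leaders (24.5%) held 10 or more, and 65 (18.7%) held none, whereas the median shorter leader held 0. Over all long leaders, with introns removed, ATG occurred 7.825 times per kilobase. The mean of the 5 other triplets made of the same letters was 12.93. In the shorter leaders these densities were 5.57 and 13.55.

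The uORFs below were chosen because their units rose, fell or had the longest leaders in the series. Each is the longest complete uORF of at most 30 bases in its leader, read 5′ to 3′ on the unit's own strand from the RefSeq genome ASM294v3, with the ATG and the stop triplet in capitals.
isp4: ATGtttgtctttaataacattTAA
prr1: ATGagaatatttatttcgtttataTAA
tgp1: ATGaatatagtaagcaacaagaatTAA
pho841: ATGtcgtgtcaaaatgttgtatatTAG
bsu1: ATGattattttcttttttTAG
opt3: ATGgttttatatctactagctttgTGA
cig2: ATGctaTAG
gcn2: ATGaagcgctttgcatacaaatgcagaTAA
That of isp4 begins 2991 bases before the main start codon and that of prr1 begins 1418 bases before it. The tgp1 leader coincides wholly with an annotated noncoding RNA of the same strand, nc-tgp1. Of the 2840 bases of the prr1 leader 2442 coincide with another, SPNCRNA.3639. Whether the uORFs of these 2 units lie on the noncoding RNA, on the mRNA or on both was not tested. The uORF of cig2, which encodes a B-type cyclin of the G1/S transition, holds a single codon between its ATG and its stop.

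Some long leaders held no upstream ATG at all, so the main start codon, shown within 30 bases, is the first ATG of the transcript. The start codon is in capitals, on the unit's strand and from the same build.
esc1: gttaatttttatacaATGtcttcatacgct
spk1: tcaatttgtagtctaATGgcgagcgctact
gpa1: agctgccttttcaccATGggatgcatgtcg
zrt1: ttctcgtacattaaaATGtctttaaacaat
The esc1 leader runs for 1469 bases without an ATG. In S. pombe spk1 encodes the MAP kinase of the pheromone pathway and gpa1 the G-protein alpha subunit of that pathway, and zrt1 encodes a zinc transporter of the plasma membrane.

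**Figure D1:**
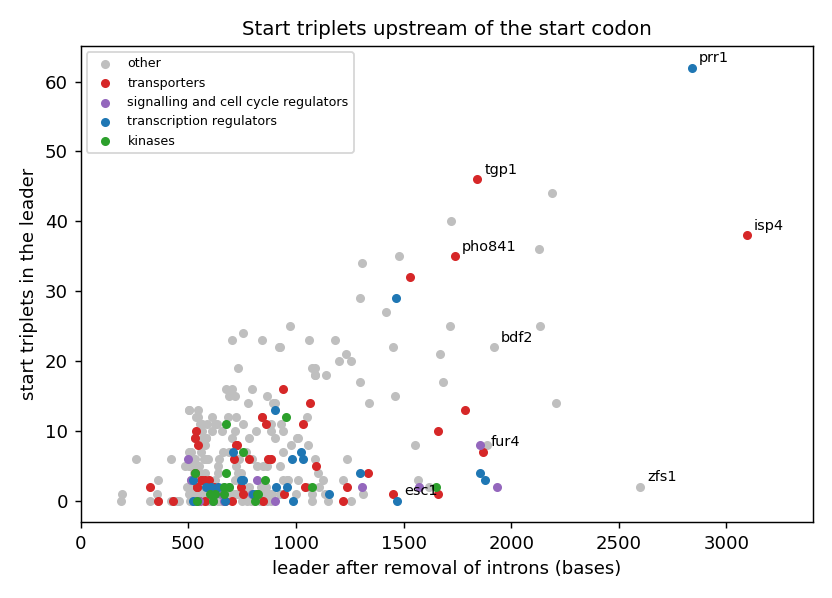
Each point is 1 of the 347 units, with the length of its leader in bases after removal of introns on the x axis and the number of ATG triplets in that leader on the y axis, coloured by function class. The prr1 leader holds 62, the isp4 leader 38 and the zfs1 leader of 2599 bases only 2.

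The longest leaders that were measured include those of isp4, prr1, zfs1 and bdf2. The isp4 unit (II:1550296-1555886, minus strand), whose product is an oligopeptide transporter, has a leader of 3095 bases. It stood at 211.9 and 393.6 CPM at 0 h, 620.4 and 977.5 at 2.5 h, and 645 and 652.9 at 4.5 h. Both later time points lay above both 0 h libraries, and the rise at 2.5 h passed the test (log2 fold change 1.40, SE 0.35, adjusted p = 0.0449) whereas that at 4.5 h did not (1.10, adjusted p = 0.0803).

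The prr1 unit (I:3663167-3669081, plus strand) encodes a stress-responsive transcription factor behind a leader of 2840 bases, of which 2442 coincide with an annotated noncoding RNA of the same strand, SPNCRNA.3639. Its level was 619 and 668.3 CPM at 0 h, 1715 and 1541 at 2.5 h, and 1708 and 1364 at 4.5 h. It rose at both times, by 1.34 (SE 0.19, adjusted p = 0.00931) and 1.25 (adjusted p = 0.0114) on the log2 scale. Because the files count reads over the whole unit, a read from the leader and one from the coding sequence cannot be told apart here, which holds for every unit.

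Neither zfs1 nor bdf2 gave a call. The zfs1 unit, for a zinc finger protein, lay between 1104 and 1338 CPM in all 6 libraries, and bdf2, for a bromodomain protein, between 806.8 and 1205.

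At 2.5 h the long-leader units were called changed about as often as the average unit of the whole table, which includes noncoding units. Of the 346 that passed the filter on low counts, 37 rose (10.7%) and 17 fell (4.91%), where over all 5208 units tested 12.3% rose and 5.11% fell. Of the other coding units 6.54% rose and 6.49% fell. Their median log2 fold change was 0.02, against 0.01 for all units and -0.09 for the other coding units. Each 0 h library moved the balance: the calls went to 65 rises and 97 falls with 0 h replicate 1 left out, where the median was -0.14, and to 84 rises and 55 falls with 0 h replicate 2 left out. Without 2.5 h replicate 1 there were 5 rises and 2 falls, and without 2.5 h replicate 2 edgeR called 0 in either direction, with 39 rises and 21 falls at an unadjusted p under 0.05. DESeq2 with all 6 libraries called 42 rises and 38 falls.

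At 4.5 h more long-leader units fell than rose. Against 0 h, 25 long-leader units rose (7.23%) and 48 fell (13.9%), where 10.1% of all units rose and 7.80% fell. Of the other coding units 7.26% rose and 7.97% fell. Their median log2 fold change was -0.12, with 0.02 for all units and -0.02 for the other coding units. The 4 differences between 1 library of each time point gave medians from -0.17 to -0.08. Leaving out 0 h replicate 1 gave 46 rises and 132 falls, and leaving out 0 h replicate 2 gave 63 and 93. Leaving out either 2.5 h library gave 10 and 17. Without either 4.5 h library too few units were called to compare rises with falls. The long-leader median minus that of all units was -0.16 without 4.5 h replicate 1 and -0.12 without 4.5 h replicate 2. With all libraries it was -0.14.

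Between 2.5 and 4.5 h falls outnumbered rises further: 7 long-leader units rose (2.02%) and 51 fell (14.7%), where 3.34% of all units rose and 6.91% fell. Of the other coding units 4.29% rose and 4.92% fell. The median was -0.13, against -0.01 for all units and 0.07 for the other coding units, and the library pairs gave medians from -0.13 to -0.08. Without any 1 of the 2.5 or 4.5 h libraries edgeR called 0 in either direction, with 53 to 67 falls and 9 to 13 rises at an unadjusted p under 0.05. DESeq2 with all 6 libraries called 66 falls and 15 rises.

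The change between 2.5 and 4.5 h fell with leader length across coding units. Units with leaders under 50 bases had a median log2 fold change of 0.24, those from 50 bases to under 100 0.10, from 100 to under 200 0.00 and from 200 to under 500 -0.07. In the long-leader units the median was -0.11 from 500 to under 750 bases, -0.22 from 750 to under 1000, -0.05 from 1000 to under 1500 and -0.25 at 1500 and over. Within the long-leader units alone the order was not kept.

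The calls ran the same way at the ends of the range. Of 995 units with leaders under 50 bases, 71 rose (7.14%) and 23 fell (2.31%), where over all units 3.34% rose and 6.91% fell. Of the 31 with leaders of 1500 bases or more none rose and 9 (29.0%) fell. For this last bin none was higher at an unadjusted p under 0.05 either, and DESeq2 called none higher and 10 lower. Among units with no intron the medians went from 0.17 under 50 bases to -0.28 at 1500 bases and over.

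Total length of the unit varies with leader length, so both were held side by side. The total includes the leader, so at equal total a longer leader leaves fewer bases for the rest. Over coding units the Spearman correlation with the change between 2.5 and 4.5 h was -0.26 for leader length and -0.21 for unit length. Within the long-leader units both were -0.03. Among units of 2000 to under 3000 bases the median was -0.16 with a long leader and 0.13 with a leader under 100 bases. The same order held from 1000 to under 2000 bases (-0.11 and 0.18) and from 3000 to under 4000 bases (-0.15 and 0.09). At 4000 bases and over it did not, with -0.07 for 54 long-leader units and -0.12 for 75 with leaders under 100 bases.

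Against 0 h the order by leader length depended on which 0 h library was used. At 2.5 h the medians went from -0.18 under 50 bases to 0.27 at 1500 and over. The 0 h replicates themselves differed along leader length: replicate 1 minus replicate 2 had a median of 0.27 under 50 bases and -0.26 at 1500 and over. The median of the long-leader units minus that of units under 50 bases was 0.21 at 2.5 h and became -0.13 without 0 h replicate 1. At 4.5 h it was -0.16, and became 0.04 without 0 h replicate 2. Between 2.5 and 4.5 h this difference was -0.37, and it lay from -0.40 to -0.29 with each library left out in turn.

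**Figure D2:**
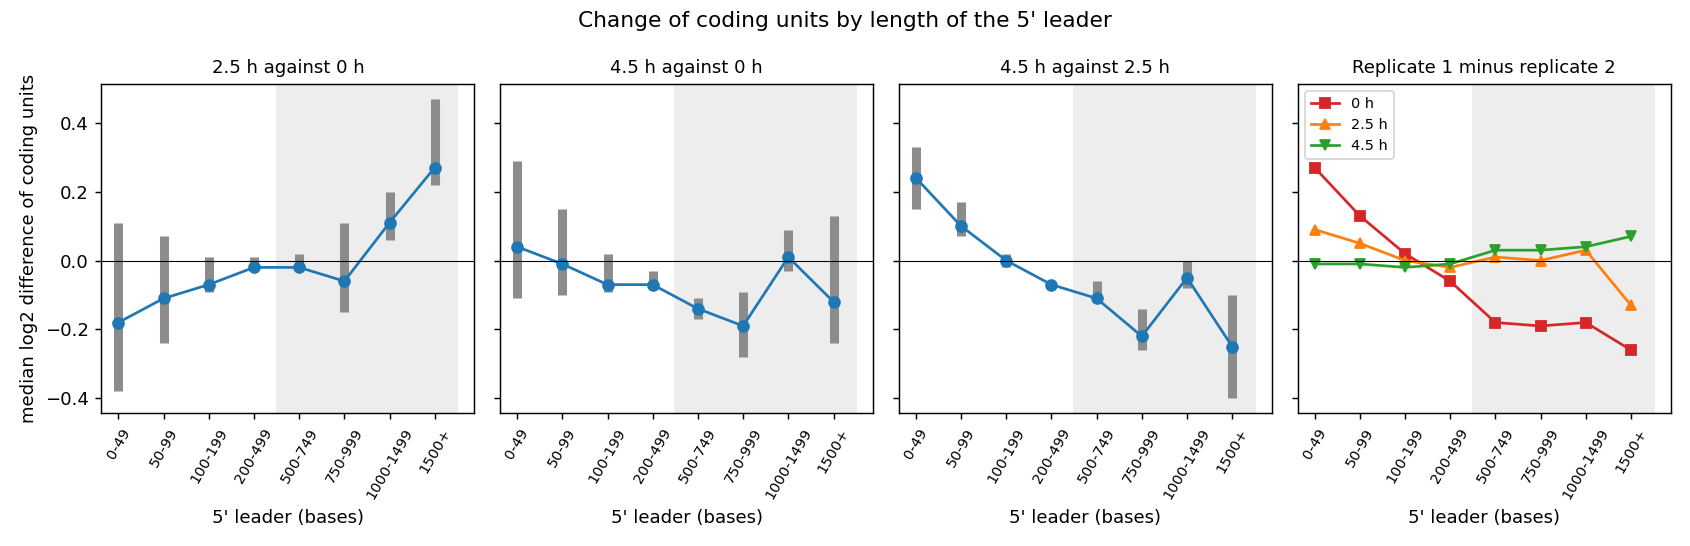
Median log2 difference of coding units (y axis) by leader length in bases (x axis) for the 3 comparisons, with grey bars for the range of the medians over the 4 pairs of single libraries, and in the last panel the difference between replicates within each time point. Shading marks leaders of 500 bases or more. The medians between 2.5 and 4.5 h go from 0.24 to -0.25, and the 0 h replicates differ by 0.27 to -0.26 along the same axis.

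Regulators and transporters made up a larger share of units with long leaders. Kinases, transcription regulators, signalling and cell cycle regulators, and transporters, assigned from symbol lists and then from words in the RefSeq product names, made up 104 of the 347 units (30.0%) and 324 of the 3502 other coding units (9.25%). The symbol lists alone gave 19.3% against 4.6%, and the product words 10.7% against 4.65%, so the excess was larger by the lists, which were written with earlier results known. The share in all 4 classes was 4.32% under 50 bases, 24.9% from 500 to under 750 bases and 51.6% of the 31 units at 1500 and over. Transporters alone were 47 (13.5%) of the long-leader units against 3.71% of the others, transcription regulators 24 (6.92%) against 2.43%, kinases 18 (5.19%) against 2.08%, and signalling and cell cycle regulators 15 (4.32%) against 1.03%.

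Among these 4 classes the transporters had the largest share of long-leader units called in either direction in each comparison. At 2.5 h 10 of 47 rose (21.3%) and 5 fell (10.6%), where 12.3% of all units rose and 5.11% fell. At 4.5 h 3 rose (6.38%) and 15 fell (31.9%), beside 10.1% and 7.80% of all units. Between those times 11 fell (23.4%) and none rose, where 6.91% of all units fell and 3.34% rose. In that last comparison 2 were higher at an unadjusted p under 0.05, and DESeq2 called none higher. The 4.5 h falls were shared by transporters with shorter leaders, of which 34 of 130 (26.2%) fell. Their median log2 fold change was -0.32 beside -0.49 in the long-leader ones. Between 2.5 and 4.5 h 19 of the 130 (14.6%) fell, with a median of -0.27 beside -0.42. At 2.5 h 7.69% of the 130 rose and 13.8% fell, with a median of -0.19 beside 0.15. The difference between long and short leaders within the class was not tested.

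**Figure D3:**
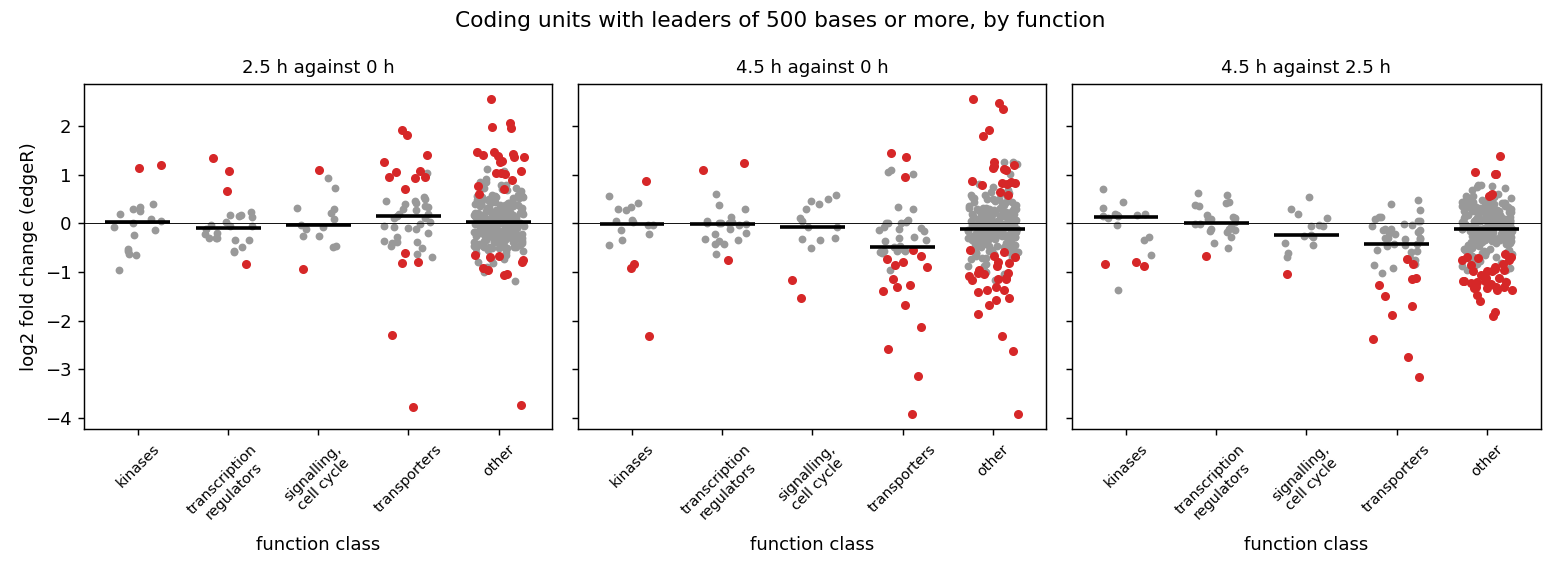
Log2 fold change (y axis) of each long-leader unit by function class (x axis) in the 3 comparisons, with units called at an adjusted p under 0.05 in red, others in grey and the class median as a bar. The transporter median lies at -0.49 at 4.5 h against 0 h and at -0.42 between 2.5 and 4.5 h.

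Vitamin transporters held the largest falls against 0 h among the long-leader transporters. The bsu1 unit, for a vitamin B6 importer, with a leader of 938 bases, went from 1076 and 1225 CPM at 0 h to 94.69 and 72.57 at 2.5 h and 98.22 and 54.41 at 4.5 h. The later groups lay far below the 0 h group, with log2 fold changes of -3.78 (SE 0.34, adjusted p = 0.00498) and -3.91 (adjusted p = 0.0046). SPBC1604.04, annotated as a thiamine pyrophosphate transporter, went from 241.5 and 175.3 to 45.71 and 38.91 and then 27.01 and 20.21 CPM (-2.30 and -3.14, adjusted p = 0.00537 and 0.00383).

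These falls came with those of other thiamine genes that have long leaders. The tnr3 unit, for thiamine diphosphokinase, which makes the active cofactor from thiamine, fell by 0.67 and 1.86 on the log2 scale. SPBC530.07C, annotated in the TENA/THI family, changed by -3.73 and -3.91 from 312.8 and 134.8 CPM at 0 h. The thi7 transporter did not pass the test (0.47 and -0.12). Thiamine was added to the cultures at 0 h, and its part in these falls cannot be told apart from that of Spt5.

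A second set of transporters was higher at 2.5 h and then low at 4.5 h. SPAC2E12.03C, a vacuolar transporter of basic amino acids, stood at 90.79 and 127 CPM at 0 h, 214.5 and 242.8 at 2.5 h, and 28.84 and 39.35 at 4.5 h. The 3 groups did not overlap, and the changes were 1.07 (adjusted p = 0.028), -1.68 (adjusted p = 0.0104) and, from 2.5 to 4.5 h, -2.75 (SE 0.25, adjusted p = 0.0152). SPAC1B3.15C, annotated as a transporter of vitamin H, that is biotin, followed the same course at 115.1 and 183.5, 274.3 and 349.8, then 60.26 and 60.27 CPM, with changes of 1.06, -1.31 and -2.37 (adjusted p = 0.0356, 0.021 and 0.0152).

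The opt3 unit, for an oligopeptide transporter, had the largest fall of these between 2.5 and 4.5 h. It went from 72.09 and 123.2 CPM to 11.49 and 10.28 (log2 fold change -3.16, SE 0.32, adjusted p = 0.0152), and its 2.5 h value of 1.04 against 0 h did not pass (adjusted p = 0.0604). SPCC757.13, a dipeptide transporter, went from 35.54 and 36.67 to 14.91 and 10.57 CPM between those times (adjusted p = 0.0235), and dal51, another dipeptide transporter with a leader of 1529 bases, fell by 0.84. The mpc2 unit, for a pyruvate transporter, stood at 735.3 and 1000 CPM at 0 h, 1272 and 1252 at 2.5 h and 589.1 and 544.8 at 4.5 h. Its fall between 2.5 and 4.5 h passed (-1.15, SE 0.20, adjusted p = 0.0307), and neither comparison with 0 h did (adjusted p = 0.113 and 0.0789).

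For other importers the call against 0 h came at 4.5 h. SPCC794.06, annotated as a malic acid transporter, stood at 164.9 and 212.4 CPM at 0 h, 107.1 and 126.7 at 2.5 h and 33.7 and 29.71 at 4.5 h (-2.57 against 0 h, SE 0.20, adjusted p = 0.00383). The liz1 unit, for the pantothenate importer, went from 80.08 and 79.78 to 103.5 and 99, and then to 43.14 and 49.27 CPM (-0.79, adjusted p = 0.0184). For fur4, the uracil importer with a leader of 1870 bases, 300.2 and 286 CPM at 0 h became 198.7 and 203.3 at 4.5 h (-0.54, SE 0.13, adjusted p = 0.0404), and sut1, a sucrose and maltose symporter, fell by 0.73 (adjusted p = 0.0375). SPAC1399.01C and SPAC3H1.06C, annotated only as transporters, also passed against 0 h at 4.5 h alone (-0.86 and -0.89, adjusted p = 0.0403 and 0.0204). The pet1 unit, for a phosphoenolpyruvate transporter, was lower at both times, with 225.8 and 230.2 CPM at 0 h, 140.2 and 121.5 at 2.5 h and 143.5 and 144.6 at 4.5 h (-0.80 and -0.66, adjusted p = 0.0147 and 0.0266). SPBPB10D8.04C, also annotated as a transporter, rose at 2.5 h (1.92, adjusted p = 0.019) from a level near 1 CPM, with only 29 and 41 reads in the 0 h libraries.

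Metal transporters took several courses. The zrt1 unit went from 1121 and 826 CPM at 0 h to 555.1 and 551.2 and then 447.4 and 358.6 (-0.82 and -1.27, adjusted p = 0.0455 and 0.0145). The atm1 unit, for an ABC transporter, went from 158.4 and 134 to 175.9 and 184.9 and then to 54.63 and 57.49 (-1.38 against 0 h, adjusted p = 0.00573). The pmr1 unit, for a calcium ATPase, fell at 2.5 h (-0.61, adjusted p = 0.0411), with -0.56 at 4.5 h (adjusted p = 0.052).

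The iron permease gene fip1 and the gene of its partner oxidase, fio1, are neighbours on opposite strands whose leaders overlap by 440 bases. For fip1 the levels were 144.4 and 134.6, 191.8 and 260.1, then 89.63 and 97.62 CPM, and for fio1 238.6 and 151.3, 351 and 394.4, then 166.8 and 204.5. Both rose at 2.5 h, by 0.70 (adjusted p = 0.0481) and 0.93 (adjusted p = 0.0498) on the log2 scale, both close to the threshold. The fall of fip1 between 2.5 and 4.5 h also passed (-1.27, SE 0.18, adjusted p = 0.0238). The strand setting of the counting is not given in the sources used here, so how reads from the shared stretch were assigned is unknown.

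The tgp1, pho841 and pho843 transporters rose at 2.5 h. The tgp1 unit (II:350404-354212, minus strand), for a glycerophosphodiester transporter, has a leader of 1843 bases that coincides wholly with the annotated noncoding RNA nc-tgp1. It stood at 225.7 and 120.3, then 542.7 and 676.5, then 342.1 and 375.5 CPM (1.82 at 2.5 h, SE 0.32, adjusted p = 0.0155, and 1.05 at 4.5 h, adjusted p = 0.0659). The phosphate transporter units pho841 (135.1 and 196, 338.4 and 457.8, 297.6 and 343.8 CPM) and pho843 (42 and 48.27, 81.03 and 95.21, 110.6 and 121 CPM) rose at both times. Of the 3, pho843 alone had both 4.5 h values above both 2.5 h values. Their log2 fold changes were 1.27 and 0.95 for pho841, with adjusted p of 0.0211 and 0.0454, and 0.96 and 1.36 for pho843, with adjusted p of 0.0139 and 0.00699.

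The acid phosphatase gene pho1, whose leader of 1184 bases is wholly nc-pho1, gave no call in any comparison. Its 0 h libraries lay far apart, at 1482 and 385.4 CPM, against 2205 and 1707 at 2.5 h and 1009 and 1122 at 4.5 h (1.07 at 2.5 h, SE 0.63, adjusted p = 0.303, 0.19 at 4.5 h, adjusted p = 0.864, and -0.88 between them, adjusted p = 0.405). SPBC1271.10C, annotated as a transporter and lying next to tgp1, rose at both times (0.96 and 1.44, adjusted p = 0.0136 and 0.00641).

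**Figure D4:**
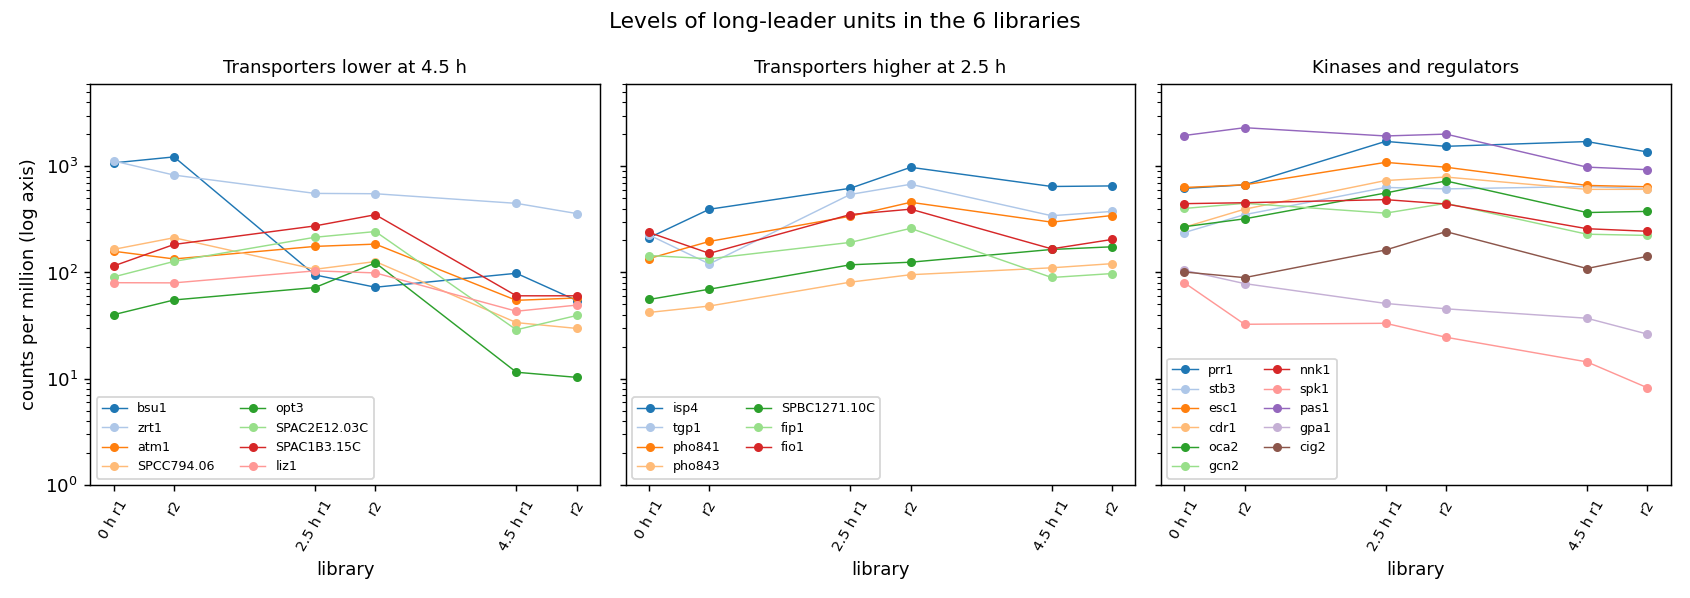
CPM on a log axis (y) in each of the 6 libraries (x) for named transporters and regulators, with r1 and r2 for the replicates and lines that only join the points of a unit. The bsu1 points drop from above 1000 to below 100 CPM, and opt3 is lowest in the 4.5 h libraries at 11.49 and 10.28.

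Of 18 kinases, 2 rose (11.1%) and none fell at 2.5 h, where 12.3% of all units rose and 5.11% fell. At 4.5 h 1 rose (5.56%) and 3 fell (16.7%), where 10.1% and 7.80% of all units did. Between those times 3 fell (16.7%) and none rose, beside 6.91% and 3.34%. A single unit makes 5.56% of this class. The class medians were 0.03, -0.01 and 0.14. Where none was called, 4 were lower at 2.5 h and 2 higher between the later times at an unadjusted p under 0.05, and DESeq2 called 1 and 0. Between the later times the kinases with shorter leaders had a median of 0.15.

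The 2 kinases that rose at 2.5 h were cdr1 and oca2. The cdr1 unit, for the Nim1-family kinase that holds back Wee1 and so promotes mitosis, stood at 266.4 and 394.2, 733.7 and 791.4, then 606.1 and 606.3 CPM (1.21 and 0.88, adjusted p = 0.0163 and 0.0408). The oca2 unit, for a serine/threonine kinase, with a leader of 1651 bases, went from 269.5 and 319.9 to 559.8 and 727.4 and then to 366.6 and 375.9 CPM. Its rise at 2.5 h was 1.13 (SE 0.19, adjusted p = 0.0136) and its fall after that 0.79 (adjusted p = 0.0495).

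The 3 kinases that fell at 4.5 h were spk1, gcn2 and nnk1. The gcn2 unit, for the kinase that phosphorylates eIF2 alpha when amino acids are short, was at 400.5 and 447.8, 361.9 and 447.5, then 229.2 and 223.2 CPM (-0.91 at 4.5 h, SE 0.17, adjusted p = 0.0184). The nnk1 unit was at 444.5 and 453.5, 485 and 441.2, then 258.2 and 244.2 (-0.84, SE 0.14, adjusted p = 0.0153). For spk1, with 80.12 and 32.5 CPM at 0 h and 14.38 and 8.212 at 4.5 h, the change was -2.32 (SE 0.53, adjusted p = 0.0401) and its 0 h libraries lay over 2-fold apart.

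Several kinases of the stress and cell cycle pathways gave no call in any comparison. Among them wis1, the MAP kinase kinase above Sty1, lay between 502 and 645.6 CPM in all libraries, and pka1, the catalytic subunit of protein kinase A, between 433.7 and 562.8. The lsk1 unit, for a kinase of the RNA polymerase II tail, lay between 92.6 and 135.9.

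Among the 24 transcription regulators 3 rose (12.5%) and 1 fell (4.17%) at 2.5 h, close to the 12.3% and 5.11% of all units. At 4.5 h 2 rose (8.33%) and 1 fell (4.17%), beside 10.1% and 7.80% of all units. Between those times 1 fell (4.17%, beside 6.91% of all units) and none rose (beside 3.34%). For that last count 2 were higher at an unadjusted p under 0.05 and DESeq2 called 1. Beside prr1, stb3 rose at both times, from 237.3 and 350.2 CPM to 631.9 and 612.1 and then 644.6 and 614.1 (1.08 and 1.10, adjusted p = 0.0216 and 0.0215). The esc1 unit rose from 631 and 668.6 to 1088 and 979.7 and returned to 660.2 and 640.9 (0.67 at 2.5 h, adjusted p = 0.0326, and -0.67 after that, adjusted p = 0.0472). The toe3 unit fell at both times (-0.84 and -0.75, adjusted p = 0.0139 and 0.0198).

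The bZIP factor gene atf1, which acts downstream of the Sty1 stress kinase and has a leader of 1886 bases that holds an intron, had 1275 and 1938 CPM at 0 h, 1382 and 1253 at 2.5 h and 1463 and 1498 at 4.5 h. The later libraries lay within the range of the 0 h libraries or, for 1 of them, just under it, and no comparison passed (adjusted p from 0.449 to 0.768). Its partner gene pcr1 and the peroxide-response factor gene pap1 gave no call either, with adjusted p of 0.494 and 0.0894 at 2.5 h.

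Of the 15 signalling and cell cycle regulators, 1 rose and 1 fell at 2.5 h (6.67% each, beside 12.3% and 5.11% of all units). At 4.5 h 2 fell (13.3%, beside 7.80%) and none rose, and between those times 1 fell (6.67%, beside 6.91%) and none rose. In each of the latter, 1 was higher at an unadjusted p under 0.05, and DESeq2 called 0 at 4.5 h and 1 between the later times. The cig2 unit rose at 2.5 h from 101 and 89.38 to 162.7 and 242.3 CPM (1.09, SE 0.24, adjusted p = 0.0294) and was at 108.9 and 141.9 at 4.5 h.

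The pas1 unit, for a cyclin, has a leader of 1854 bases and fell late. Its levels were 1948 and 2308, 1929 and 2008, then 981.5 and 928.8 CPM, and the 4.5 h group lay below all others (-1.16 against 0 h, SE 0.18, adjusted p = 0.0122). The gpa1 unit fell at both times, from 105 and 78.53 to 51.09 and 45.45 and then 37.05 and 26.28 CPM (-0.93 and -1.53, adjusted p = 0.0434 and 0.012). The cdc25 unit, for the phosphatase that starts mitosis by activating Cdk1, lay between 232.6 and 288.1 CPM in every library and gave no call.

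Outside these classes, obr1 and trx1 were higher at 2.5 h and higher again at 4.5 h. The obr1 unit, for a quinone oxidoreductase, went from 373.6 and 371.4 CPM to 899.1 and 1144 and then 2103 and 2012, rises of 1.46 at 2.5 h (adjusted p = 0.00729) and 2.47 at 4.5 h (SE 0.19, adjusted p = 0.00383). The trx1 unit, for thioredoxin, with a leader of 1201 bases, went from 430.4 and 339.8 to 747.3 and 683 and then 1421 and 1475 (0.89 and 1.91, adjusted p = 0.0229 and 0.00465). Thioredoxin reductase, encoded by trr1, rose by 1.19 at 4.5 h (adjusted p = 0.0162), and superoxide dismutase, encoded by sod1, by 0.79 (adjusted p = 0.0235), and neither passed at 2.5 h (adjusted p = 0.237 and 0.438). The trr1 leader is followed in the genome by AGT, not ATG, so its deposited end does not lie at a start codon.

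The gpd1, gut2 and gpd3 units passed at different times. The gpd1 unit, for a glycerol-3-phosphate dehydrogenase, went from 1569 and 1696 CPM at 0 h to 2247 and 2624 and then to 3917 and 3876 (0.58 at 2.5 h, adjusted p = 0.0868, and 1.26 at 4.5 h, adjusted p = 0.0114). The gut2 unit, for another glycerol-3-phosphate dehydrogenase, went from 32.55 and 46.99 to 99.91 and 108.4 at 2.5 h and 67.56 and 74.77 at 4.5 h (1.39 and 0.84, adjusted p = 0.0106 and 0.0421). The gpd3 unit, for a glyceraldehyde 3-phosphate dehydrogenase, rose by 1.99 at 2.5 h with a wide error (SE 0.48, adjusted p = 0.0474) and did not pass at 4.5 h (1.27, adjusted p = 0.127). The pxr1 unit, for a ribosome biogenesis protein of the PINX1 family, went from 43.73 and 62.26 CPM to 72.7 and 67.4 and then 107.7 and 126.3 (1.14 at 4.5 h, adjusted p = 0.0184).

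Some of the largest called rises were of units with low levels. The wtf11 unit, with a leader of 1721 bases, was at 9.296 and 13.76, 29.27 and 34.35, then 25.72 and 27.64 CPM (1.46 and 1.21, adjusted p = 0.0133 and 0.0232). It belongs to the wtf family, whose members resemble each other, so its reads may be shared with other copies. The mug115 unit was at 9.007 and 12.03, 24.27 and 31.68, then 7.152 and 7.855, with 1.41 at 2.5 h (adjusted p = 0.0145) and -1.90 after that (adjusted p = 0.0197). The cum1 unit took the same course at 5.534 and 7.886, 17.38 and 17.13, then 6.771 and 8.284 (1.36 and -1.20, adjusted p = 0.018 and 0.0432).

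The hem1, clr2, adh4 and tms1 units were among the largest called falls against 0 h. The hem1 unit, for the first enzyme of haem synthesis, was at 838.1 and 826.8, 531.3 and 608.4, then 343.4 and 289.6 CPM (-1.40 at 4.5 h, adjusted p = 0.00699). The sib1 unit, for the synthetase of the siderophore ferrichrome, fell by 1.37 between 2.5 and 4.5 h (adjusted p = 0.0319) and did not pass against 0 h at 4.5 h (-0.83, adjusted p = 0.0639). The clr2 unit, for a subunit of the SHREC silencing complex, fell at both times from 68.76 and 78.18 to 37.04 and 39.25 and then 24.8 and 25.64 CPM (-0.95 and -1.54, adjusted p = 0.012 and 0.00488). The adh4 unit, for an alcohol dehydrogenase, was at 288.8 and 239.3, 206.9 and 229.6, then 88.64 and 88.98 (-1.57 at 4.5 h, adjusted p = 0.00489). The tms1 unit, for a hexitol dehydrogenase, was at 20.04 and 22.43, 18.38 and 18.77, then 8.597 and 4.713 (-1.68 at 4.5 h, adjusted p = 0.0176).

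A few units fell at 2.5 h and were not called against 0 h at 4.5 h. The pac1 unit, for a ribonuclease that cuts double-stranded RNA, was at 154 and 176.1, 77.19 and 82.3, then 121.4 and 121 CPM (-1.05 at 2.5 h, adjusted p = 0.00809, and 0.60 after that, adjusted p = 0.0481). Its 4.5 h libraries still lay below both 0 h libraries (-0.45, adjusted p = 0.0749). The ucp6 unit, for a UBA domain protein, was at 319.3 and 443.2, 204.6 and 198.4, then 247.6 and 253.7 CPM, also below 0 h at 4.5 h (-0.92 at 2.5 h, adjusted p = 0.0245, and -0.61 at 4.5 h, adjusted p = 0.0744). The pab2 unit, for a nuclear poly(A)-binding protein, was at 126.5 and 96.41, 65.53 and 62.15, then 111.2 and 101.1 (-0.80 at 2.5 h, adjusted p = 0.0301), with its 4.5 h values inside the range of 0 h. The met1 unit, for a uroporphyrin methyltransferase, fell by 0.75 at 2.5 h and rose by 1.05 after that. The lag1 unit, for a sphingosine N-acyltransferase, was at 186.6 and 195.9, 141.3 and 131.3, then 209.8 and 198.3, where the rise between 2.5 and 4.5 h passed (0.58, adjusted p = 0.0472) and the earlier change did not (-0.49, adjusted p = 0.0528).

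Other transcripts overlapped many of these leaders. A unit of the other strand overlapped 95 leaders (27.4%, against 7.31% of the shorter ones). A longer leader has more bases that can be overlapped. With at least 50% of the leader covered by such a unit, the shares were 9.22% and 5.85%. Of the 95 with any overlap 94 were tested, and 18 rose at 2.5 h (19.1%) and 20 fell between 2.5 and 4.5 h (21.3%). Over all units tested 12.3% rose and 6.91% fell in the same comparisons. Without such an overlap 19 of 252 rose (7.54%) and 31 fell (12.3%). The median between the later times was -0.08 without the overlap and -0.25 with it. As the strand setting of the counting is not given, reads of the other strand may or may not be in these counts, and their part was not tested.

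An annotated noncoding RNA of the same strand covered at least 100 bases of 32 leaders (9.22%, against 0.428% of the shorter ones). The shorter leaders had a median of 98 bases, so many of them could not hold such an overlap. With at least 50% of the leader covered, the shares were 4.9% and 0.6%. Of the 32 with at least 100 bases covered, 6 rose (18.8%) and 2 fell at 2.5 h, where 9.87% of the 314 others rose and 12.3% of all units. At 4.5 h 6 rose (18.8%) and 3 fell, where 6.05% of the others and 10.1% of all units rose. Between those times 2 rose (6.25%) and 4 fell (12.5%), where 1.59% of the others rose and 15% fell. Over all units 3.34% rose and 6.91% fell. The difference from the others was not tested. SPBC8E4.02c, whose leader of 584 bases is wholly the noncoding RNA prt2, went from 37.15 and 54.45 CPM to 226.9 and 310.9 and then 248.3 and 288 (2.55 at both times, adjusted p = 0.00534 and 0.00495). SPCC1235.01, with 2188 bases wholly covered by SPNCRNA.1115, went from 830.9 and 1128 to 2390 and 2628 and then 3191 and 3648 (1.36 and 1.80, adjusted p = 0.0133 and 0.00752). The prr1, tgp1, obr1 and gpd1 leaders belong to the 32 as well. So do units that were called lower, ucp6 at 2.5 h (-0.92, adjusted p = 0.0245) and SPCC757.13 at 4.5 h against 0 h (-1.15, adjusted p = 0.0187). The pho1 unit, also among the 32, gave no call. A count of such a unit cannot be divided between the noncoding RNA and the gene behind it.

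At 2.5 h units with many upstream ATG triplets were called higher more often. With 10 or more in the leader 17 of 84 units rose (20.2%) and 2 fell (2.38%). With 1 to 9, 16 of 197 rose (8.12%) and 11 fell (5.58%), and with none 4 of 65 rose (6.15%) and 4 fell (6.15%). Over all units 12.3% rose and 5.11% fell. Between 2.5 and 4.5 h the shares that fell were 19.0%, 13.2% and 13.8%, beside 6.91% of all units. Longer leaders hold more of these triplets, and number and length were not separated.

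Promoter motifs of 4 known kinds were looked up before these units. In the 300 bases upstream of the unit, on either strand, TGACGT (bound by Atf1-type factors) was found at 7.20% of the long-leader units and 5.23% of the other coding units. ACGCGT (bound by the G1/S factor MBF) was found at 2.88% and 2.80%, CCCCTC (an element of STRE type) at 3.75% and 1.77%, and TTCTTTGTT (the TR box bound by Ste11) at 2.59% and 1.88%. A match is only a stretch of letters and was not tied to binding here.

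The units nearest the threshold of 500 bases were these. Just inside were SPBP8B7.32 and npt1 with 500 bases and rad24, a 14-3-3 protein gene, with 501, and their log2 fold changes at 4.5 h were -0.43, 0.45 and -0.35. Just outside, each 1 base short of the threshold, were the copper transporter gene ctr4 (-1.43), the iron-sulphur scaffold gene isu1 (-0.05) and srb8 of Mediator (0.49).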

How the data were processed

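The authors deposited whole-number read counts per transcription unit, 1 file per library, not normalised. Per the submitters' processing notes, STAR 2.3.0, SAMtools and the build ASM294v2 were used. Which program counted, whether by strand, and how multiply mapped reads were handled is not given in the sources used here. A unit table the authors deposited gave coordinates, leader lengths and introns, and half-life scores with no time unit, used only to describe.

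Counts were tested with edgeR 4.0.16 (R 4.3.3) after a filter on low counts, filterByExpr grouped on time, which kept 5208 of 5484 units. The design had TMM scaling, 1 robust quasi-likelihood fit over all 6 libraries with time point as its term, and Benjamini-Hochberg adjustment over all units at 0.05, two-sided. The fit leaves 3 residual degrees of freedom. Levels are CPM with TMM scaling, computed here. Means of 2 libraries were not printed with an SD, since both values are given. The script was tested on simulated data. DESeq2 1.42.0 and other settings were alternatives. Figures and shares were made in Python 3.11.15.

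Sequences and product names came from RefSeq ASM294v3. Of the deposited introns 4894 of 4912 (99.6%) began with GT and ended with AG in it, and 343 of 345 matched leaders ended at the annotated start codon. Of the 347 units 275 had a gene symbol. Function classes came from symbol lists (67 units), then product words (37).

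Units named are the 5 longest leaders, those with the largest called changes per comparison (8 each way against 0 h, 5 each way between the later times, mean count of at least 50, groups that do not overlap, with a symbol), class members that passed, and a few fixed regulators. SPBC530.07C, SPBC8E4.02c, SPCC1235.01, sod1, thi7, pho1, wis1, pka1, lsk1, pcr1 and pap1 were added after their values were seen. A result for 1 of the 5 is not reported here. The members and lists were chosen with earlier results of these data known.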

Additional observations from a re-analysis of the deposited data

How the results depend on the processing

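Counts below are long-leader units called higher and lower. At 2.5 h against 0 h the 37 and 17 became 16 and 6 with only the 4 libraries compared. The falls became 11 with a mean count of at least 50 and 38 by DESeq2, and the rises became 16 without units that overlap another on the other strand. At 4.5 h the 25 and 48 became 10 and 18 with only the libraries compared and 13 and 27 without such overlap. Between 2.5 and 4.5 h the 7 and 51 became 44 and 106 with only the libraries compared and 4 and 24 without such overlap. The rises there became 4 with DESeq2 size factors, 2 with library totals and 15 by DESeq2.

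With leaders of at least 300 bases the counts were 74 and 39 at 2.5 h, 51 and 91 at 4.5 h, and 12 and 80 between them. With at least 750 bases they were 21 and 5, 15 and 23, and 3 and 31, and with at least 1000 bases 14 and 1, 11 and 10, and 1 and 17, since the set itself changes. The medians with at least 1000 bases were 0.17, 0.00 and -0.10. Without overlap on the other strand the medians were -0.05 at 2.5 h and -0.05 between the later times. At 4.5 h the median became -0.19 with DESeq2 and with its size factors and -0.23 with library totals, and between the later times -0.20 with library totals. The median over all units itself moved by less than 0.1 on the log2 scale under these scalings, and at 4.5 h the long-leader median minus that of all units was -0.14 with TMM and -0.16 with library totals. Every long-leader unit holds 1 gene, so leaving out units of several genes changed nothing.

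Leaving out each library in turn gave 0 to 84 rises and 0 to 97 falls at 2.5 h, 3 to 63 and 5 to 132 at 4.5 h, and 0 to 47 and 0 to 105 between them. Calls were fewest without a 2.5 or 4.5 h library and most without a 0 h one. The medians ran from -0.14 to 0.10, from -0.27 to -0.06 and from -0.14 to -0.07. The median difference from units with leaders under 50 bases ran from -0.13 to 0.44, from -0.43 to 0.04 and from -0.40 to -0.29, and those low and high values against 0 h came without 0 h replicate 1 or without 0 h replicate 2. The cause was not tested. Between the later times this difference was -0.33 in units with no intron, -0.33 in units of 1500 to under 3000 bases and -0.35 in units of no function class, 3 settings chosen after seeing the data.

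The replicate block gave 44 and 17, 30 and 50, and 6 and 49. The labels do not say that a number marks a shared culture. The replicate deviations of the time points correlated over units at 0.46, 0.21 and 0.10, all above 0. With 2 pairs per comparison and no label of a shared culture, pairing was neither established nor excluded, and the samples were taken to share only a number. Of 104 calls of named units none reversed under any setting. DESeq2 kept all of them, and 7 were lost with the block (among them fio1 and pmr1 at 2.5 h, fur4 at 4.5 h, and esc1, lag1 and pac1 between the later times), 44 with only the libraries compared, and 83 to 88 without a 2.5 or 4.5 h library.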
